A study of Mus musculus with 6 samples.

Results

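The regions described here were open at passage 1 in mouse embryonic fibroblasts (MEFs) at both oxygen levels and had no peak in either late culture. They number 2947 of the 170532 regions (1.73%) obtained when the peaks of 4 ATAC-seq libraries were merged wherever they overlapped or touched. A region was kept when it held a peak of both passage 1 libraries by at least 1 bp and no peak of the other 2. The members were therefore selected on measured values: the presence of a peak, its strength in the passage 1 libraries and its absence from the late lists describe the choice, and no test was made on them.

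The MEFs came from E13.5 embryos of C57BL/6J mice, a strain shared by every group. Hyp-Pro MEFs were proliferating at passage 1 in 3% O2, and Norm-Pro MEFs were at passage 1 in 20% O2. Hyp-Imm MEFs had become immortalized in 3% O2, and Norm-Sen MEFs had become senescent in 20% O2. Each condition had 1 library, so that no replicate error exists and the counting intervals below say nothing of the spread between cultures. MEFs are a mixed primary culture, prepared from whole embryos without head and red organs, and passage, oxygen and culture cannot be told apart where each cell of the design holds 1 culture.

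ATAC-seq uses a transposase that inserts adapters into DNA that is not wrapped tightly, so that sites bound by transcription factors appear as peaks. Open sites lie at promoters, which in dividing fibroblasts are mostly CpG-rich and shared between cultures, and at distal enhancers, which differ more. In fibroblasts, AP-1 (dimers of the Fos and Jun families) is known for binding distal enhancers, TEAD factors act with the coactivators Yap1 and Wwtr1, and CTCF marks insulators and loop anchors. Tfcp2l1, the factor whose binding was mapped in the late cultures, belongs to the pluripotency network of mouse embryonic stem cells.

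Sequences of the members that lead the results are shown first, 5′ to 3′ on the plus strand of GRCm38, as the window of 200 bp around the centre of each region. The first 4 are among the 5 members of highest standing (the Ndfip1 promoter, which has a late peak close by, is not printed), where the standing is the lower of a member's 2 percentile ranks of -log10 q among all peaks of Hyp-Pro and of Norm-Pro. Capitals mark GGGCGGG (bound by Sp and Klf factors) at Aunip and Cenpm, GGAATG (TEAD) in the Rasal2 intron and CACGTG (an E-box) at Nol11, each searched on both strands.
Aunip promoter, chr4:134510922-134511121: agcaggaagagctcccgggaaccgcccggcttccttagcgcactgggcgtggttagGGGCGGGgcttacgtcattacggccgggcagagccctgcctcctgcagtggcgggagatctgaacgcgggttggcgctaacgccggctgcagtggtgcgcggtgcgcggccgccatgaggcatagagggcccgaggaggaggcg
Rasal2 intron, chr1:157256666-157256865: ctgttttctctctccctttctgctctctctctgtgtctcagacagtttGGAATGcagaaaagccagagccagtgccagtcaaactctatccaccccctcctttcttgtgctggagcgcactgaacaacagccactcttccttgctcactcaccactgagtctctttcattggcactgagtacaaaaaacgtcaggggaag
Cenpm promoter, chr15:82244450-82244649: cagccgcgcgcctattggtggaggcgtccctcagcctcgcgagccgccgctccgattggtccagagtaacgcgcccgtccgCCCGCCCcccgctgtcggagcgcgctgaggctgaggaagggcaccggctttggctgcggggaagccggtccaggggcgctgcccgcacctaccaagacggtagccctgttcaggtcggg
Nol11 promoter, chr11:107189262-107189461: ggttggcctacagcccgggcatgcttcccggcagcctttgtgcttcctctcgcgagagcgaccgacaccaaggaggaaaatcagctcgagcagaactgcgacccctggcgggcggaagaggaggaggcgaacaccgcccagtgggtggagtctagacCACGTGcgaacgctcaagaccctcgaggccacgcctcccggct

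The next 5 are distal members of highest standing with the AP-1 motif TGAGTCA in capitals, written TGACTCA where the match lies on the other strand. They were chosen after the values were seen, because this motif separated the distal members furthest from the late-only regions.
Gja1 distal, chr10:56782329-56782528: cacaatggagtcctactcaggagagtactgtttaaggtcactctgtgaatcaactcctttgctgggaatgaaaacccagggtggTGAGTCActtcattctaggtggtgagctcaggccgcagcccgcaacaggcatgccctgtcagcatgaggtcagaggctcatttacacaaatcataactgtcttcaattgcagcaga
Nceh1 intron, chr3:27209866-27210065: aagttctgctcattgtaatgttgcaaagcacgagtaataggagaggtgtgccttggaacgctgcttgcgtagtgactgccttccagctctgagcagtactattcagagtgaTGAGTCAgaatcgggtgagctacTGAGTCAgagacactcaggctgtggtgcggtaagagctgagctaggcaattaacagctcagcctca
Hbb-y upstream, chr7:103861003-103861202: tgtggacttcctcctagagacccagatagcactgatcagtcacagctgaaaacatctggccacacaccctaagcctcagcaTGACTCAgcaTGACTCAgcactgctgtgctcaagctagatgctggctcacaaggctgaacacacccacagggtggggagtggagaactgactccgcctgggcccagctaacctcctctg
Zfp703 distal, chr8:26747290-26747489: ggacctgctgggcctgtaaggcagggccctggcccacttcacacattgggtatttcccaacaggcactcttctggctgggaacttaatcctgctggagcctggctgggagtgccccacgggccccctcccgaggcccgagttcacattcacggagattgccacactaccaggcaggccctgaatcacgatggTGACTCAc
Lef1 distal, chr3:131085308-131085507: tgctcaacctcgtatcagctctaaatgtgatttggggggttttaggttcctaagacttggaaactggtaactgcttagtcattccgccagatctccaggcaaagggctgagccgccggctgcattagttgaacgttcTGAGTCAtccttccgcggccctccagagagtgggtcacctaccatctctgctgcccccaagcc

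The next 2, also chosen after the values were seen, are the centres (100 bp) of the distal members that ranked next after the Hells intron among those with a CTCF match, in capitals. The promoter of Cdkn1a follows, with its GGGCGGG matches in capitals, since this gene encodes the cell cycle inhibitor p21. The last overlaps a Tfcp2l1 ChIP-seq peak, and its capitals mark the tRNA-Arg gene that RefSeq places there on the minus strand.
Ahi1 distal, chr10:20966236-20966335: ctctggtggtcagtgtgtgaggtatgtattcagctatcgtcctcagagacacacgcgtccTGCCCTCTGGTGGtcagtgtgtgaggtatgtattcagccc
Dusp8 distal, chr7:142097985-142098084: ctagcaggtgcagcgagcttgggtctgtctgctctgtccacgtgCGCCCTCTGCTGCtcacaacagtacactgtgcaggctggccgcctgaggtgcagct
Cdkn1a promoter, chr17:29093629-29093828: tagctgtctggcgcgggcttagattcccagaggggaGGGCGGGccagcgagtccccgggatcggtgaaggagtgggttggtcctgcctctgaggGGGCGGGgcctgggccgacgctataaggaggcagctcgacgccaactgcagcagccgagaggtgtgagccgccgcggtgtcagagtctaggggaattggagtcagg
tRNA-Arg gene near 1700064H15Rik, chr3:19627883-19628082: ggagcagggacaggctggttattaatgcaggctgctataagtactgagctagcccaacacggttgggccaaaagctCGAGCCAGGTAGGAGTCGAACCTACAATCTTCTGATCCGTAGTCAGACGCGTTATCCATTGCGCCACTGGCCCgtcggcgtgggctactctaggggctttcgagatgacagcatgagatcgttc

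Several facts about the libraries bear on every count below. The deposited lists held 47523 peaks for Hyp-Pro, 69122 for Norm-Pro, 37770 for Hyp-Imm and 61408 for Norm-Sen. The number of sequenced reads was not used here, but the genome-wide background that the peak caller assumed could be recovered from each peak's fold and p-value. It was 0.956 stacked reads per base in Hyp-Pro, 1.24 in Norm-Pro, 0.445 in Hyp-Imm and 1.77 in Norm-Sen, so that Hyp-Imm was the thinnest. The names of the 4 deposited files state other conditions than the sample labels do: under the file names the passage 1 libraries are those labelled Hyp-Pro and Norm-Sen. The labels were followed, and results by the file names stand beside them. The share of peaks on the X chromosome was 4.76% in Hyp-Pro and 1.08% in Norm-Pro, against 1.44% in Hyp-Imm and 4.44% in Norm-Sen, so that the pair with many X peaks is the pair that the file names call passage 1. Of the members, 41 (1.39%) lay on the X chromosome, against 3.08% of all merged regions. Of 12 fibroblast markers, 8 had a peak within 1 kb of a transcription start site (TSS) in Hyp-Pro and 7 in Norm-Pro, against 4 in Hyp-Imm and 8 in Norm-Sen. Col3a1 and Prrx1, which mark fibroblasts and limb mesenchyme, had none in any library. Of 4 macrophage markers, 0 had a promoter peak in Hyp-Pro and 1 in Norm-Pro, against 1 in Hyp-Imm and 0 in Norm-Sen, and of 4 skeletal muscle markers, 1 had one in Hyp-Pro and 1 in Norm-Pro, against 0 in both late libraries. Of 4 endothelial markers, 2 had one in Hyp-Pro and 2 in Norm-Pro, against 1 in each late library. Epithelial markers numbered 2 of 4 in Hyp-Pro and 1 in each other library, and those of neurons and glia 1 of 4 in Hyp-Imm and 2 in each other library. The part of other cell types in the results was not tested.

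The passage 1-only regions were one of 6 sets that exactly 2 libraries shared. Sharing between Norm-Pro and Norm-Sen alone was more frequent (4470 regions), and sharing between Hyp-Pro and Norm-Sen alone was about as frequent (2849 regions), which is also the number of passage 1-only regions under the file names. The reverse set, open in both late libraries and in neither passage 1 library, held 1025 regions (0.601% of the pool). The 3 pairs with Hyp-Imm held 852 to 1264 regions. In bulk libraries, fewer cells with an open region and less opening in each cell cannot be told apart. Of the 12755 regions that Hyp-Pro and Norm-Pro shared, 23.1% were open in neither late library (95% exact interval 22.4 to 23.8), 31.1% were also open in Norm-Sen only, 4.48% in Hyp-Imm only and 41.3% in both. Under all 4 peak lists trimmed to the strongest 37770 peaks, 2047 regions were open only at passage 1 and 772 only in the late libraries.

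**Figure D1:**
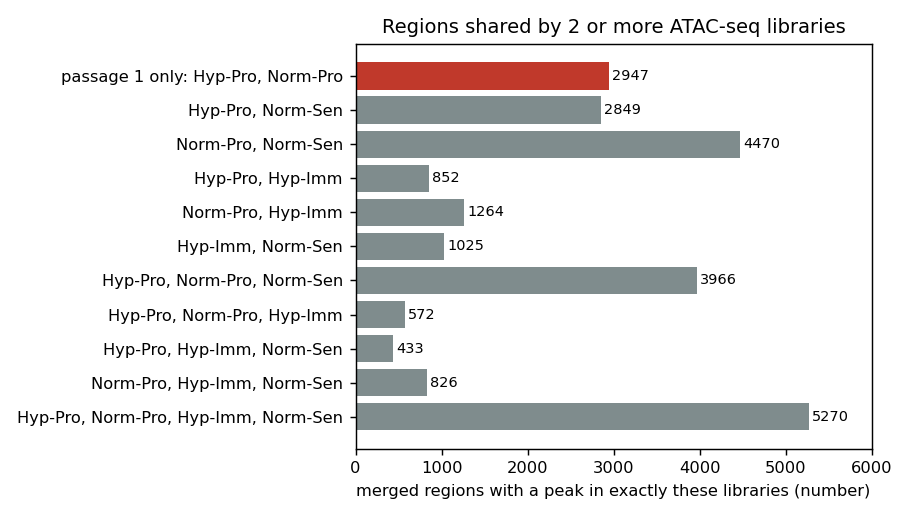
Merged regions (number, horizontal axis) that held a peak in exactly the libraries named on the vertical axis, for every combination of 2 or more of the 4 ATAC-seq libraries. The 2947 passage 1-only regions (red) outnumber the 1025 late-only regions but not the 4470 of Norm-Pro and Norm-Sen.

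The members were of middling strength within the passage 1 libraries and weaker than the regions open in all 4 libraries. The summit pileup, the number of reads stacked at the highest point of a peak, was 7 to 26 in Hyp-Pro with a median of 11, and 7 to 32 in Norm-Pro with a median of 12, against medians of 10 over all Hyp-Pro peaks and 11 over all Norm-Pro peaks. In the 5270 regions open in all 4 libraries the medians were 17 in Hyp-Pro and 21 in Norm-Pro. Fold enrichment over the local background had a median of 4.76 in Hyp-Pro (3.08 to 12.3) and 4.47 in Norm-Pro (2.86 to 9.83). The median -log10 q was 3.84 in Hyp-Pro and 3.86 in Norm-Pro, at the 51.1 percentile of Hyp-Pro peaks and the 58.9 percentile of Norm-Pro peaks. The median width was 189 bp, against 399.5 bp in the regions open in all 4 libraries and 114 bp in the pool. Promoter members had higher pileups (median 12 in Hyp-Pro and 14 in Norm-Pro) than distal members (10 and 11 in the same libraries).

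The rule kept regions with a peak at both oxygen levels, which by itself holds the ratio of their pileups near 1, and regions open at 1 oxygen level only are not among the members. The values are given as a description. Divided by each library's background, the pileup in Hyp-Pro was 1.17 times that in Norm-Pro at the median, and 1.10 times in the regions open in all 4 libraries, which were chosen in the same way. Of the members, 49 (1.66%) were at least 2 times higher in Hyp-Pro and 1 was at most 0.5 times as high. The pileups of Hyp-Pro and Norm-Pro had a Spearman rho of 0.58 over the 2947 members, against 0.60 over the 5270 regions open in all 4 libraries; the points share 2 libraries and their depth. With a single library at each oxygen level no difference between them could be tested.

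**Figure D2:**
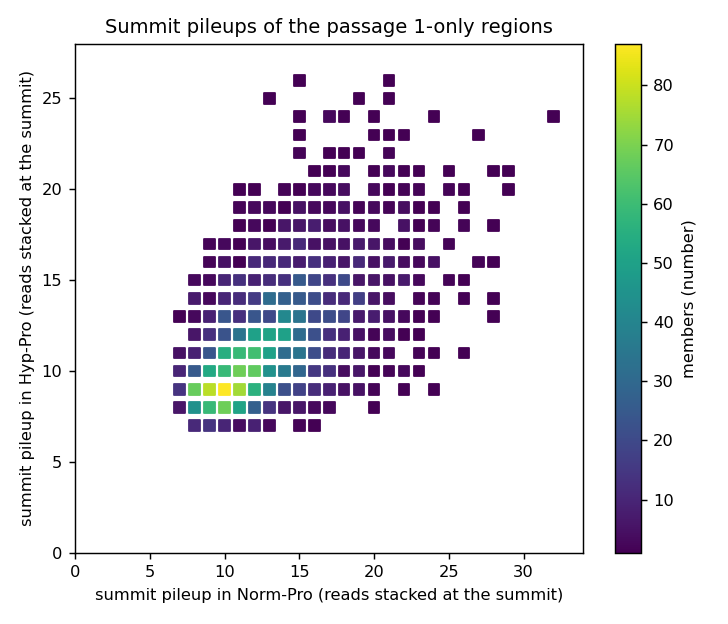
Summit pileup (stacked reads) of the 2947 members in Hyp-Pro (vertical axis) and in Norm-Pro (horizontal axis), each square coloured by the number of members with that pair of values. Most members sit near the low end, around the medians of 11 in Hyp-Pro and 12 in Norm-Pro.

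Absence from a late list is not a measured level of 0, since the lists give no value where no peak was called. Each member's pileup was therefore scaled to the late libraries and compared with the weakest p-value at which they called a peak. Norm-Sen had the highest background, so that scaling by the ratio of backgrounds raises every pileup (1.85 times from Hyp-Pro and 1.43 times from Norm-Pro), and that all 2947 members would then have passed there follows from the scaling. In Hyp-Imm, 2573 (87.3%) would have passed when scaled from Hyp-Pro, 1496 (50.8%) when scaled from Norm-Pro, 1309 (44.4%) from both and 187 (6.35%) from neither. Scaled instead by the median pileup ratios in regions open in all 4 libraries, 2936 members (99.6%) would have passed in Hyp-Imm from both libraries and 2939 (99.7%) in Norm-Sen. These ratios come only from regions that both late libraries had called, so that the high shares are partly built in. They do not show that the members could have been detected late. Neither scaling allows for counting scatter around the scaled value. The 1309 members that passed under every scaling are given beside the results below.

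Values just inside the rule were small. The weakest passage 1 peak of a member had a -log10 q of 1.62, and 77 members had a weaker peak under 2. In 35 members a late peak lay within 10 bp without touching. Just outside the rule, 17 regions shared by Hyp-Pro and Norm-Pro were left out for a late peak whose -log10 q was under 2, and 14 for a late peak that overlapped by 10 bp or less.

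Late peaks were often near. A peak of either late library lay within 500 bp of 783 members (26.6%) and within 1000 bp of 922 (31.3%). Most of this came from promoters: 578 of 1055 promoter members (54.8%) had a late peak within 500 bp, against 205 of 1892 distal members (10.8%). The median gap to the nearest late peak was 380 bp for promoter members and 7766 bp for distal members.

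By position, 1055 members (35.8%, exact interval 34.1 to 37.6) lay within 1 kb of a TSS of a protein-coding transcript (promoter members), 132 (4.48%) had their centre in an exon, 888 (30.1%) in an intron and 869 (29.5%) between genes. This share at promoters lay above that of the late-only regions (23.2%, 20.7 to 25.9) and of the pool (13.7%), and far below that of the regions open in all 4 libraries (83.6%, 82.5 to 84.6). It was close to the share in regions of Norm-Pro and Norm-Sen alone (33.6%, 32.3 to 35.1), and above that of Hyp-Pro and Norm-Sen alone (29.2%), the passage 1 pair under the file names, for which the late pair had 25.1%. Among the 1309 members that passed under every scaling it was 38.3%. Without members that have a late peak within 1000 bp it fell to 20.7%. Of the 23283 promoter regions of the pool, 4.53% were members. The median GC content of the windows was 58.5%, against 56.5% in late-only regions, 68.5% in regions open in all 4 libraries and 52.5% in the pool.

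Of the 15 members of highest standing, 10 were promoters. The first was the promoter of Aunip, which encodes a partner of Aurora A kinase and is printed above. Its region (chr4:134510885-134511158) spans the TSS, and its pileup was 23 in Hyp-Pro and 27 in Norm-Pro, with a fold of 8.57 in Hyp-Pro and 7.45 in Norm-Pro. The nearest late peak was 13911 bp away. The promoter of Ndfip1, an adaptor of Nedd4 ubiquitin ligases, had the highest fold of all members in Hyp-Pro (12.3; pileup 25) and a fold of 7.67 in Norm-Pro (pileup 21), with a late peak only 80 bp away.

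A region in an intron of Rasal2, a Ras GTPase-activating protein, was the leading distal member (chr1:157256651-157256881). It lay 148 kb from the nearest TSS, that of Tex35, had a pileup of 20 in Hyp-Pro and 18 in Norm-Pro, and no late peak lay within 75423 bp. Cenpm (a kinetochore protein; chr15:82244418-82244682) had 19 stacked reads in Hyp-Pro and 22 in Norm-Pro, and its nearest late peak was 5505 bp away. Nol11 (a ribosome biogenesis factor; chr11:107189233-107189491) had 17 in Hyp-Pro and 21 in Norm-Pro. Of these 5 leading members, only Ndfip1 had a late peak within 5 kb.

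Hells, a chromatin remodeler of the SNF2 family needed for DNA methylation, held an intronic member 7.92 kb from its TSS (chr19:38938830-38938948; pileup 14 in Hyp-Pro and 17 in Norm-Pro) with a CTCF match, in a window that is 73.0% repeat-masked. The promoters of Vps13c (16 and 19 in Hyp-Pro and Norm-Pro), Dock1 (18 and 22), Cldn12 (14 and 17) and Eif3g (21 and 21) followed. Vps13c transports lipids, Dock1 activates Rac in migrating cells, Cldn12 is a claudin and Eif3g a subunit of a translation initiation factor. Their nearest late peaks were 54207, 14083, 20524 and 402 bp away.

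At 4 other promoters among the 12 of highest standing a late peak lay beside the member. Glipr2 (chr4:43957600-43957959; 19 in Hyp-Pro and 24 in Norm-Pro) had one 61 bp away. Pparg, the nuclear receptor that drives fat cell formation, had one 26 bp away (chr6:115360809-115361472; 15 in Hyp-Pro and 18 in Norm-Pro), and Rarg, a retinoic acid receptor, had one 73 bp away (24 and 24). Tpt1, a translationally controlled protein, was the last of the 12 leading promoters (18 in Hyp-Pro and 24 in Norm-Pro; late peak 247 bp away). At these 4 genes the late libraries thus had a peak within 250 bp of the member.

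Distal members near Col6a3 and Plxna2 were also among the 15. Col6a3 encodes a collagen VI chain, and its member lay between genes 93.5 kb from the TSS (chr1:90750259-90750437; 17 in Hyp-Pro and 19 in Norm-Pro). The member near Plxna2, a semaphorin receptor, lay 75.3 kb away (chr1:194544417-194544546; 13 in Hyp-Pro and 15 in Norm-Pro). Both held a TEAD match. A member near Gm21738 (chr14:19417477-19417645) had the highest Norm-Pro pileup of all (32; 24 in Hyp-Pro), but 91.5% of its window is repeat-masked, its local background was 3.78 in Hyp-Pro and 6.16 in Norm-Pro, and the nearest late peak lay 120 bp away.

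Of the motifs searched, AP-1 was the one in which the distal members stood furthest from the distal late-only regions. Against distal regions open in all 4 libraries GGGCGGG differed more (6.25% of distal members and 25.3% of those regions). Of 1889 distal members on the chromosomes searched, 343 held TGAGTCA within 200 bp around the centre (18.2%, exact interval 16.4 to 20.0). The share was 6.23% in distal late-only regions (49 of 786, 4.65 to 8.16), 6.50% in distal regions of the pool and 3.55% in windows 1 kb to either side of the members. Median GC was 55.0% in distal members and 54.75% in distal late-only regions, and median width 181 bp and 168 bp in the same order. Over all members, promoters included, 12.8% held the motif, against 5.37% of late-only regions and 5.94% of the pool.

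The AP-1 share was not highest in the members. Distal regions of Hyp-Pro, Norm-Pro and Norm-Sen without Hyp-Imm had 23.4% (21.1 to 25.8), and regions of Hyp-Pro and Norm-Sen alone had 15.2% (13.6 to 16.8), those of all 4 libraries 14.3% and those of Norm-Pro and Norm-Sen alone 12.2%. The sets of 2 libraries that include Hyp-Imm had 6.23% to 9.83%. Under the file names the passage 1-only share was thus 15.2%, against 6.59% (5.09 to 8.37) in the late-only regions so defined. With equal numbers of peaks per library the shares were 20.7% in passage 1-only and 6.67% (4.71 to 9.11) in late-only regions. Among distal members that passed under every scaling 145 of 805 held it (15.4 to 20.8%). Hyp-Imm was also the library of lowest background, and the part of depth in these differences was not tested.

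**Figure D3:**
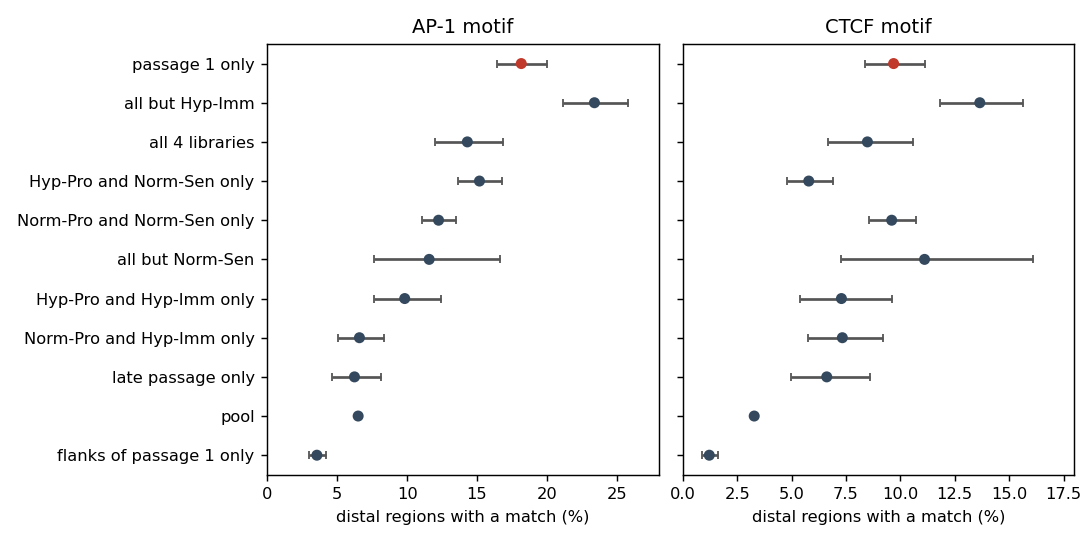
Share of distal regions (percent, horizontal axes) with a match to the AP-1 motif (left) and the CTCF motif (right) in each set of regions (vertical axis), with 95% exact intervals that cover counting error only. Passage 1-only regions (red) had 18.2% with AP-1 and 9.69% with CTCF, against 6.23% and 6.62% in late-only regions.

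Split into 3 equal groups by standing, the distal members held AP-1 in 14.9% of the lowest (12.2 to 17.9), 18.9% of the middle and 20.6% of the highest group (17.5 to 24.0), so that the intervals of the lowest and the highest overlapped. In late-only regions ranked in the same way within the late libraries the share was 6.11%, 7.63% and 4.96% from the lowest to the highest group. All 3 lay below the lowest group of the members. Matches were concentrated at the centre. In the 50 bp left and right of the centre there were 77.8 and 63.5 matches per 1000 distal members, against 17.8 and 22.9 per 1000 late-only regions, and beyond 150 bp from the centre the members had 5.82 to 12.7 per 1000 in each bin.

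**Figure D4:**
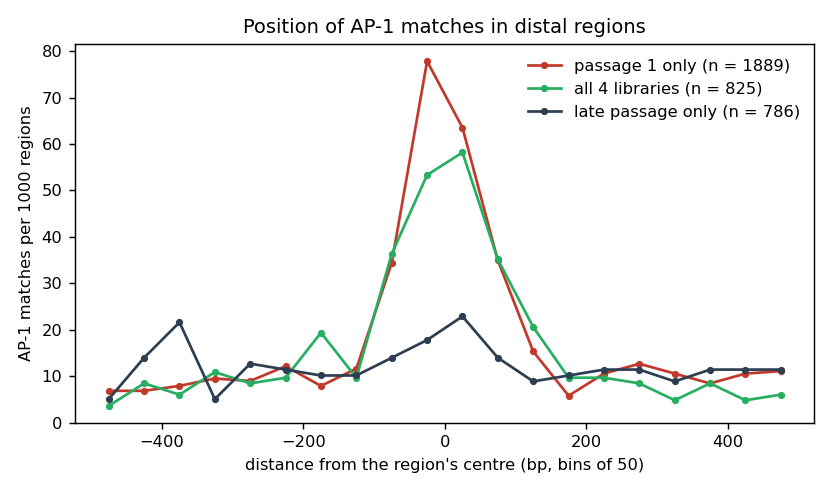
AP-1 matches per 1000 distal regions (vertical axis) in bins of 50 bp by distance from the region's centre (horizontal axis) for passage 1-only regions, regions open in all 4 libraries and late-only regions. The passage 1-only regions peak at 77.8 per 1000 in the bin left of the centre, where late-only regions have 17.8.

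The distal AP-1 members printed above lay near genes of several kinds. The first lay 403 kb from Gja1, the main gap junction protein of fibroblasts, with a pileup of 13 in Hyp-Pro and 17 in Norm-Pro (chr10:56782303-56782555). The second lay in an intron of Nceh1, a cholesterol ester hydrolase, with 2 matches (chr3:27209875-27210057; 16 in Hyp-Pro and 24 in Norm-Pro). Another lay 7.76 kb from Hbb-y, an embryonic beta-globin gene (chr7:103860976-103861230; 14 in Hyp-Pro and 13 in Norm-Pro). Its 2 matches, TGACTCAgcaTGACTCA, stand in tandem, an arrangement known from the erythroid enhancer of the beta-globin locus, and no late peak lay within 75492 bp.

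Further distal AP-1 members lay 230 kb from Zfp703 (13 in Hyp-Pro and 18 in Norm-Pro), 24.9 kb from Lef1, a transcription factor of Wnt signalling (14 and 19), and in an intron of Pebp4 (19 and 19). Others stood in introns of Tead1, itself a TEAD factor (chr7:112823794-112823955; 16 in Hyp-Pro and 15 in Norm-Pro), and Tgfbr1, a receptor of TGF-beta (chr4:47407369-47407521; 11 and 10). Members 22.1 kb from Notch1 (14 in Hyp-Pro and 15 in Norm-Pro) and 34.1 kb from Bnip3l, a mitophagy receptor induced in hypoxia (16 and 14), also held it.

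CTCF matches, with up to 1 mismatch allowed (2 for Tfcp2l1, 0 for motifs spelled out), were found in 9.69% of distal members (183 of 1889, 8.39 to 11.1), against 6.62% of distal late-only regions (4.98 to 8.59), 8.48% of those open in all 4 libraries and 3.28% of the pool. The members were not highest: distal regions of all libraries but Hyp-Imm had 13.7% and those of all but Norm-Sen 11.1%. The share was 9.60% in regions of Norm-Pro and Norm-Sen alone and 5.79% in regions of Hyp-Pro and Norm-Sen alone, which are the passage 1-only regions under the file names. TEAD motifs (GGAATG) were in 15.5% of distal members (13.9 to 17.2), 12.5% of late-only regions and 13.2% of the pool, a smaller gap than for AP-1. The hypoxia response element TACGTG was in 1.91% of distal members, 2.29% of late-only regions and 1.99% of the pool. The p53 motif was in 0.69%, 0.51% and 0.67% of the same sets. The RUNX motif TGTGGTT was in 4.92%, 4.33% and 4.23% of them. Among 28 motifs searched, AP-1 had the greatest difference in percent between distal members and distal late-only regions.

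At promoters, GGGCGGG was in 40.2% of the 1055 promoter members (37.2 to 43.2), against 31.5% of late-only promoters (25.7 to 37.8), 57.0% of promoters open in all 4 libraries (55.6 to 58.5) and 35.0% of promoter regions of the pool. The CCAAT motif of NFY, written CCAATCA, was in 3.41% of promoter members (2.40 to 4.69), 5 of 238 late-only promoters and 11.6% of promoters open in all 4 libraries (10.7 to 12.6). The ETS motif CCGGAAG was in 9.57% of promoter members, 10.1% of late-only promoters and 13.6% of promoters open in all 4. AP-1 was in 3.32% of promoter members (2.32 to 4.58) and 2.52% of late-only promoters (0.931 to 5.41).

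The shares with the Tfcp2l1 motif had overlapping intervals. The motif was in 21 of 2944 members (0.713%, 0.442 to 1.09), 0.391% of late-only regions (0.107 to 0.997), 0.784% of regions open in all 4 libraries and 0.671% of the pool. Tfcp2l1 ChIP-seq, available from Hyp-Imm and Norm-Sen MEFs, listed 612 and 393 peaks in the same order. A ChIP-seq peak overlapped 12 members (0.407%, 0.211 to 0.710): 10 in the Hyp-Imm list, 8 in the Norm-Sen list and 6 in both. The share was 0.293% in late-only regions (3 regions), 1.90% in regions open in all 4 libraries and 0.172% in the pool. In regions of all libraries but Hyp-Imm it was 0.656%, and in those of all but Norm-Sen 0.699%. It was 0.380% in regions of Norm-Pro and Norm-Sen alone and 0.211% in those of Hyp-Pro and Norm-Sen alone. The pairs of a passage 1 library with Hyp-Imm had at most 0.0791%.

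Of these 12 members, 5 overlapped a tRNA gene of RefSeq, as did 58 of the 293 regions of the pool with a ChIP-seq peak. The 12 include the member near Gm21738, whose window is 91.5% repeat-masked. It was in both ChIP-seq lists and had the highest -log10 q of the 12 (48.8 in Hyp-Imm and 53.2 in Norm-Sen). At the tRNA-Arg gene near 1700064H15Rik, the member had a pileup of 14 in Hyp-Pro and 17 in Norm-Pro, and the ChIP-seq fold was 5.54 in Hyp-Imm and 9.11 in Norm-Sen. Further members lay at a tRNA-Ile gene (chr13:21896854-21897036) and, outside the naming rule and chosen after the values were seen, a tRNA-Glu gene (chr7:58399315-58399488) and a second tRNA-Arg gene (chr11:107012571-107012948). A member in an intron of BC107364 (chr3:96435538-96435750; 10 in Hyp-Pro and 17 in Norm-Pro) overlapped no tRNA gene and had a ChIP-seq fold of 4.79 in Hyp-Imm and 13.4 in Norm-Sen. tRNA genes are short, transcribed by RNA polymerase III and present in many near-identical copies. The member 41.4 kb from Pdia4, in the domain of the Polycomb methyltransferase gene Ezh2, overlapped a Hyp-Imm ChIP-seq peak with a fold of 7.99 (chr6:47771746-47771998; 9 in Hyp-Pro and 10 in Norm-Pro).

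Promoters were also counted by gene, which gives a different set from the promoter members. Here the peaks of Hyp-Pro and Norm-Pro could lie at different places within 1 kb of any TSS of the gene. A peak within 1 kb of a TSS was found for 14216 genes in any library, for 10350 in Hyp-Pro and 11485 in Norm-Pro, against 7288 in Hyp-Imm and 11078 in Norm-Sen. Of these 14216 genes, 575 (4.04%) had one in both passage 1 libraries and in no late library, and 145 had one in both late libraries only. Promoter members belonged to 1024 genes, and 668 of those genes had a late peak elsewhere within 1 kb of a TSS.

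Gene lists were read against that background by the domain of each gene (from 5 kb before to 1 kb after the TSS, and outwards as far as the next gene's domain, at most 1 Mb). Of 16 lists, 14 had a share of passage 1-only regions whose exact interval included the 1.73% of all regions. Ribosomal protein genes stood above it (15 of 352 regions, 4.26%, 2.40 to 6.93) and pluripotency genes below it (4 of 910, 0.440%, 0.120 to 1.12). By nearest TSS the shares were 3.51% (1.30 to 7.48) at ribosomal protein genes, where the interval included 1.73%, and 0.370% at pluripotency genes (0.0449 to 1.33), which stayed below. Fibroblast matrix genes then lay above the background instead (17 of 436, 3.90%, 2.29 to 6.17), so that which list stood above it depended on how regions were assigned to genes.

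**Figure D5:**
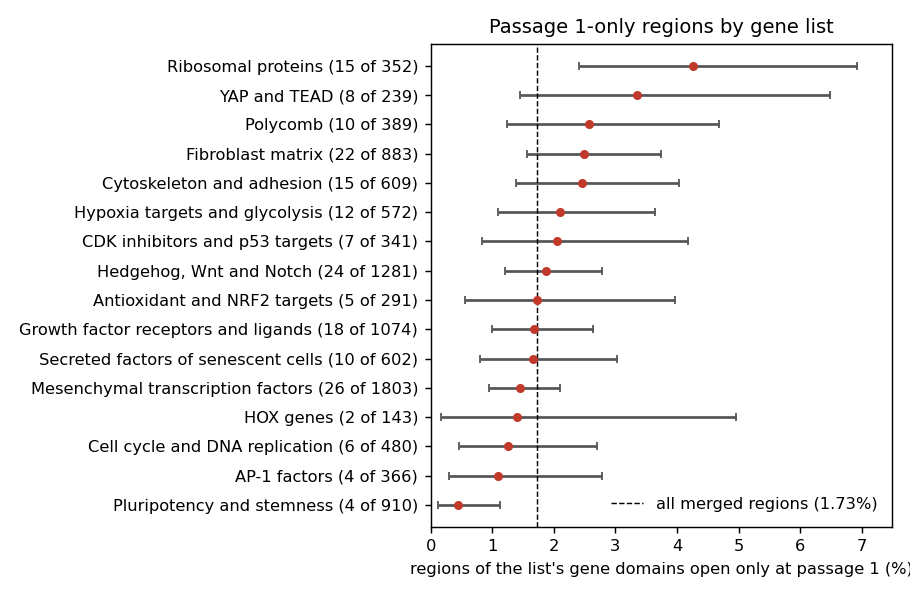
Share of the merged regions in the domains of each gene list that were open only at passage 1 (percent, horizontal axis), with 95% exact intervals for counting error, and the 1.73% of all merged regions as a dashed line. Counts stand beside each list; ribosomal protein genes lie above the line and pluripotency genes below it.

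Fibroblast matrix genes had 22 of 883 regions (2.49%, 1.57 to 3.75) open only at passage 1 and 4 of 883 (0.453%) open only late. Of the 26 genes of this list with a promoter peak in any library, 4 had it only at passage 1, namely Thbs1, Loxl1, Col5a1 and Col11a1 (15.4%, 4.36 to 34.9, against 4.04% of all genes). These 4, like the other genes named for their promoters in this and the next paragraphs, were picked out after their values were seen. Only 2 of the 42 promoter regions of the list were members (4.76%, against 4.53% of all promoter regions), at Thbs1 and Loxl1. No promoter region of Col5a1 or Col11a1 was a member. Thbs1 encodes thrombospondin 1, an adhesive matrix glycoprotein, and its promoter member (chr2:118111594-118111952) had a pileup of 18 in Hyp-Pro and 20 in Norm-Pro, with no late peak within 9131 bp. Loxl1 crosslinks elastin and collagen, and its promoter member had 20 in Hyp-Pro and 16 in Norm-Pro, with a late peak 4405 bp away. A member in an intron of Rxra, in the domain of the collagen V gene Col5a1, had 23 in Hyp-Pro and 21 in Norm-Pro.

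Hypoxia targets and glycolysis genes had 12 of 572 regions (1.09 to 3.64%). P4ha2, a prolyl 4-hydroxylase subunit that modifies collagen and is induced in hypoxia, was the gene of this list with a promoter peak only at passage 1. That is 1 of the 28 genes of the list with a promoter peak in any library (3.57%, against 4.04% of all genes). At P4ha2 there were also promoter members. Its TSS member (chr11:54100867-54101044) had 13 in Hyp-Pro and 16 in Norm-Pro, a neighbouring member had 15 and 11, and the nearest late peaks lay 8880 and 9229 bp away. The Pfkfb3 promoter, of a glycolytic regulator, held a member with 13 in Hyp-Pro and 20 in Norm-Pro beside a late peak 49 bp away.

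CDK inhibitors and p53 targets had 7 of 341 regions (2.05%, 0.829 to 4.18), and none of the 18 genes with a promoter peak had it only at passage 1. At Cdkn1a the member spans the TSS (chr17:29093614-29093844), with a pileup of 18 in Hyp-Pro and 22 in Norm-Pro and folds of 4.35 and 4.28. Its nearest late peak was 1578 bp away, and elsewhere within 1 kb of a TSS of the gene Norm-Sen had a peak and Hyp-Imm had none. Hyp-Imm was also the library of lowest background, with a promoter peak at the fewest genes. At Cdkn1b, which encodes p27, the member (chr6:134920209-134920484) had 19 in Hyp-Pro and 15 in Norm-Pro, and a late peak lay 117 bp away. Cdkn2a, which encodes p16 and p19Arf, held a weak promoter member (chr4:89295411-89295636; 9 in Hyp-Pro and 15 in Norm-Pro) 200 bp from a late peak, and all 4 libraries had another promoter peak of the gene. A member 62.8 kb from the TSS of Dmrta1 lay in the domain of Cdkn2b, the p15 gene (9 in Hyp-Pro and 9 in Norm-Pro).

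Secreted factors of senescent cells had 10 of 602 regions (1.66%, 0.799 to 3.03). The leading members of this list lay in an intron of Igfbp3 (13 in Hyp-Pro and 14 in Norm-Pro), 3.21 kb from the chemokine gene Ccl20 (13 and 12) and at the promoter of Tnfrsf11b, which encodes osteoprotegerin (11 and 12). The cell cycle and DNA replication list had 6 of 480 regions (1.25%, 0.460 to 2.70) and no promoter member. Members near Myc lay 375 kb (13 in Hyp-Pro and 11 in Norm-Pro) and 43.0 kb (9 and 10) from its TSS.

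Ribosomal protein genes had 5 promoter members among the 48 promoter regions of the list (10.4%, 3.47 to 22.7). This interval included the 4.53% of all promoter regions. The leading member stood at the promoter of Zwilch, in the domain of Rpl4 (13 in Hyp-Pro and 15 in Norm-Pro), followed by one 136 kb from Rpl14 (13 and 15) and one at the promoter of Syngr1, in the domain of Rpl3 (16 and 16). At promoters of the list, Rps15 had 17 in Hyp-Pro and 21 in Norm-Pro, Rplp1 had 12 and 17, and Rpl10a had 14 and 18. Of the 37 genes with a promoter peak in any library, 4 had it only at passage 1, among them Rpl4, Rpl10a and Rplp1. The interval of this share (10.8%, 3.03 to 25.4) included the 4.04% of all genes. Ribosomal protein genes have many processed pseudogenes, and how reads with several matches were placed was not given in the sources used here.

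The lists of YAP and TEAD genes had 8 of 239 regions (3.35%, 1.46 to 6.49) and of cytoskeleton and adhesion genes 15 of 609 (2.46%, 1.38 to 4.03). The promoter of Wwtr1, the coactivator TAZ, held a member with a TEAD match (chr3:57576134-57576371; 18 in Hyp-Pro and 19 in Norm-Pro) 112 bp from a late peak. A member in an intron of Parva lay in the domain of Tead1 (14 in Hyp-Pro and 18 in Norm-Pro). Members in introns of Itga11, a collagen receptor (16 in Hyp-Pro and 17 in Norm-Pro), and of Dcaf5 in the domain of the actin crosslinker Actn1 (16 and 16) lay 49 and 217 bp from a late peak.

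Growth factor receptors and ligands had 18 of 1074 regions (1.68%), with promoter members at Egfr (12 in Hyp-Pro and 11 in Norm-Pro), Met (10 and 17), Pdgfc (10 and 11) and Fgf10 (9 and 9). A member 1.58 kb from Igf1r had 21 in Hyp-Pro and 18 in Norm-Pro. Of the promoters, Fgf10, a ligand of embryonic mesenchyme, had no late promoter peak. Of the 28 genes of the list with a promoter peak, 2 (Fgf10 and Fgf2) had it only at passage 1. The interval of this share (7.14%, 0.877 to 23.5) included the 4.04% of all genes. Mesenchymal transcription factors had 26 of 1803 regions (1.44%, 0.944 to 2.11). The promoters of Zeb2 (16 in Hyp-Pro and 12 in Norm-Pro) and Snai2 (8 and 20) held members, and Zeb2 had no late promoter peak. Of the 36 genes of this list with a promoter peak, 2 (Zeb2 and Nfia) had it only at passage 1. That share (5.56%, 0.680 to 18.7) also had an interval that included the 4.04% of all genes. A member 310 kb from Setd4, in the domain of Runx1, had 11 in Hyp-Pro and 26 in Norm-Pro. Divided by each library's background, its pileup in Hyp-Pro was 0.548 times that in Norm-Pro. This was the lowest ratio among distal members, whose highest was 2.49.

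Hedgehog, Wnt and Notch genes had 24 of 1281 regions (1.87%), 6 of them in the domain of Hes1, a repressor downstream of Notch. Hes1 and Nrp1, a semaphorin and VEGF receptor, were the genes with the most members: 6 of 66 regions of the Hes1 domain (9.09%) and 6 of 85 of the Nrp1 domain (7.06%). The share over all merged regions was 1.73%. Since these genes were picked for the highest counts among all gene domains, their counts are high by selection. The Hes1 members lay in a domain of 686 kb. The 4 nearest to its own TSS had 8 to 11 stacked reads in Hyp-Pro and 9 to 23 in Norm-Pro, and 2 more lay nearest to Cpn2. Hes1 itself had no promoter peak in Hyp-Pro. Camta1, Pard3 and Kirrel3 had 5 members each, Cpn2, Bfsp1 and Tbca 4 each, and 3131 genes had 1. A region can count for more than 1 gene. The 4 members of Cpn2 are all among the 6 of Hes1, and the domains of Pard3 and Nrp1 overlap.

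Polycomb genes had 10 of 389 regions (2.57%, 1.24 to 4.68), led by the promoter of Cbx7 (chr15:79932681-79932857; 19 in Hyp-Pro and 18 in Norm-Pro), a subunit that represses Cdkn2a, with a late peak 823 bp away. AP-1 factor genes had 4 of 366 regions (1.09%, 0.299 to 2.77), at Maf, Batf3, Fos and Junb, of which Maf was a promoter member (16 in Hyp-Pro and 15 in Norm-Pro). HOX genes had 2 of 143 regions, near Evx1 (10 in Hyp-Pro and 13 in Norm-Pro) and Calcoco1 (12 and 12). Antioxidant genes had 5 of 291, led by one near Tex50 in the domain of the peroxidase gene Prdx6 (16 in Hyp-Pro and 12 in Norm-Pro) and one 12.5 kb from Prdx1 (12 and 13). Of the pluripotency genes, Klf5, Dppa4 and Tfcp2l1 had members in their domains, and no promoter of the list was a member. The Tfcp2l1 member lay in an intron of the neighbouring Gli2, with a standing of 3.92 (12 in Hyp-Pro and 11 in Norm-Pro). The Tfcp2l1 promoter had a peak in Hyp-Pro, Norm-Pro and Norm-Sen but not in Hyp-Imm. Hyp-Imm was the library of lowest background. It had a promoter peak at 7288 genes, against 10350 in Hyp-Pro, 11485 in Norm-Pro and 11078 in Norm-Sen. The part of depth in the missing Tfcp2l1 peak was not tested.

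Along the chromosomes, 31 of 2924 pairs of neighbouring members stood within 1000 bp of each other and 284 within 50000 bp. No comparison with a random placement was made.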

How the data were processed

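Peak lists were deposited for 4 ATAC-seq and 2 ChIP-seq libraries of MEFs, 1 library per condition, as grouped by the sample labels. The authors aligned ATAC-seq reads to GRCm38/mm10 with Bowtie2, shifted cut sites for the transposase and ran MACS2 (FDR 0.05) on each library alone. The ChIP-seq peaks were taken to be on the same build, which was not given in the sources used here. The deposited columns used were the fold enrichment over local background (a ratio), the −log10 p-value and the −log10 q-value, while the deposited integer score repeats the −log10 q-value times 10.

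From these, peaks were merged, presence was counted, and pileup and background were solved from fold and p-value under the Poisson formula of MACS2 (largest error of −log10 p 0.000227). TSSs came from GENCODE vM21, tRNA genes and sequences from RefSeq (GRCm38.p6), domains from the basal plus extension rule. Motifs were searched within 200 bp on the assembled chromosomes other than the Y chromosome. Intervals of shares are 95% exact binomial ones (Clopper-Pearson) and hold only the counting error; no p-values were computed since no condition was replicated. Python 3.11.15, scipy 1.17.1 and pysam 0.24.0 were used, and the steps were checked on simulated data.

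The members and lists were chosen with earlier results of these data known. Named are the 15 members and the 12 promoter members of highest standing, up to 3 members per gene list, the 8 genes with most members, up to 5 members at ChIP-seq peaks and those near genes the study names. Not all of these are described, some are not reported here, and a few others were named after their values were seen.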

Additional observations from a re-analysis of the deposited data

How the results depend on the processing

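The number of passage 1-only regions stayed within 1.5 times under 9 of 12 alternatives, between 2025 (no late peak within 1000 bp) and 3012 (Hyp-Pro peaks overlapped directly with Norm-Pro peaks). A requirement of a larger overlap between peak and region could not change it, since merged regions contain their peaks. It was 971 with a -log10 q of at least 5 in all 4 libraries, and 1901 and 225 with at least 3 and 5 at passage 1 and all late peaks kept. Under the file names a different set of 2849 regions was found, sharing 0 regions with the members. That 0 follows from the rule, since this set needs a Norm-Sen peak and the members must lack one. This alternative is counted among the 9, but it says nothing of how stable the members are.

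The share at promoters was 43.7% with equal numbers of peaks, 29.2% by the file names, 32.0% within 500 bp, 38.5% within 2500 bp, 31.2% with the 5′ end of each gene only, 20.7% without members near late peaks and 38.3% in members past the limit of both late libraries; the last 3 were chosen after seeing the data. The distal AP-1 share was 20.7% with equal numbers of peaks, 15.2% by the file names, 12.1% in windows of 100 bp and 21.7% without windows that are mostly masked. The distal CTCF share was 12.4%, 5.79%, 6.88% and 11.3% under the same alternatives and 11.2% in members past the limit. The Tfcp2l1 motif share was 0.374% in windows of 100 bp. Within 500 bp, 20 members had a ChIP-seq peak. The domains of listed genes held 184 members, and their promoters 34. The cause of these differences was not tested. No paired analysis was possible because the results come from no test and no replicate numbers are shared between replicated groups.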
